A study of Mus musculus with 6 samples.

Results

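The genes described here are 10 genes of heart muscle measured in mouse lung: Nppa, Myl7, Myl4 and Sln, which are typical of the atria, and Nppb, Myh6, Tnnt2, Tnni3, Myl2 and Mybpc3, which are general to the heart or typical of its ventricles. They were taken by symbol from the platform annotation, as every probe set assigned to 1 of these symbols alone, which gave 15 probe sets of 45037 for 10 of 18193 genes. A further 2 probe sets assigned to Myh6 together with Myh7 were left out. The genes were chosen from measured signals of these same 6 arrays, so their levels and group differences are a description and carry no test.

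Lungs came from adult female F1 mice of 2 crosses and were measured on Affymetrix arrays, 3 per cross. AKR_F1 below stands for (AKR/J x FVB/NJ)F1 and DBA_F1 for (DBA/2J x FVB/NJ)F1, so every mouse carried 1 FVB/NJ chromosome set beside a set from AKR/J or DBA/2J. No treatment other than Avertin anaesthesia before cervical dislocation is given, nor is an exact age, and nothing in the labels ties an array to an animal of its own. Any p-value therefore measures only the spread between these samples, which may be technical. Signals are log2 values of 1 probe set on 1 array, and a log2 difference of 1 is a doubling of signal. Since each probe set binds its target with its own strength, signals are compared between arrays for 1 probe set and never between genes.

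In mice, a sleeve of heart muscle runs from the left atrium along the pulmonary veins into the lung, and it has the contractile proteins of atrial muscle. Atrial muscle cells use the myosin light chains Myl7 (regulatory) and Myl4 (essential), and the small membrane protein sarcolipin (Sln) restrains their calcium pump. Ventricular muscle uses the regulatory light chain Myl2 instead. Atria also store and release atrial natriuretic peptide (Nppa), which acts on blood vessels and kidney, and B-type natriuretic peptide (Nppb) is made by stretched heart muscle.

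Nppa and Nppb are neighbours on chromosome 4, and their signals had the widest range over the arrays of all 10 genes. Their upstream sequences are shown because the pair stood out together, with those of the atrial light chain Myl7 and the myosin heavy chain Myh6, whose range was narrower, for comparison. Each is the 250 bases before the RefSeq start site in GRCm38.p6, read 5′ to 3′ on the gene's strand. Capitals mark matches on either strand to the TATA box (TATAAA), to 1 form of the GATA factor site (TGATAA) or another (AGATAA), to the core site of TEAD factors (CATTCC), to the MEF2 box and to the CArG box bound by serum response factor; no match overlapped another.
Nppa (chr4:148000472-148000721, plus strand): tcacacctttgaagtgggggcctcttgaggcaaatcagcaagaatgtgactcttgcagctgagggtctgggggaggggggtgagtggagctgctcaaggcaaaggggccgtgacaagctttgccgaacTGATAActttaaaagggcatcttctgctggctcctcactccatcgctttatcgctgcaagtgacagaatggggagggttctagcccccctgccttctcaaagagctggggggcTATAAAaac
Nppb (chr4:147985650-147985899, plus strand): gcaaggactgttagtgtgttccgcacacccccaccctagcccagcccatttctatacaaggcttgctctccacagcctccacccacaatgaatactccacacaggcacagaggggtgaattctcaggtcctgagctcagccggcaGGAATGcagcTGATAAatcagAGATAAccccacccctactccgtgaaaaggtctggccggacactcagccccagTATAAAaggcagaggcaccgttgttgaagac
Myl7 (chr11:5898783-5899032, minus strand): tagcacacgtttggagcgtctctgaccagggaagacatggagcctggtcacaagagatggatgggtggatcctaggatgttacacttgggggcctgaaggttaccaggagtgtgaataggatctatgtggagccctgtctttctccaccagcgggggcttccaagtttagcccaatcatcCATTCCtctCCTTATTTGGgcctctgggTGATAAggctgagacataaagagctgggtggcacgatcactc
Myh6 (chr14:54966608-54966857, minus strand): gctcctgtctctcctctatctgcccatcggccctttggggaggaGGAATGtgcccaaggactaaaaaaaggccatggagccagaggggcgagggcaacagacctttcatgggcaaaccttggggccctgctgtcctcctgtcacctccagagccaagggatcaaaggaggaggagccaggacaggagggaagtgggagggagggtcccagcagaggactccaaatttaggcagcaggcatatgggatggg
Nppa and Nppb both held the TATA box and TGATAA. The TATA box match began 9 bases before the start of Nppa and 31 bases before that of Nppb. TGATAA began 122 bases before the start of Nppa and 95 bases before that of Nppb. Nppb also held AGATAA and, on the opposite strand, the TEAD core. Myl7 held the TEAD core, a CArG box and TGATAA, and Myh6 held the TEAD core alone of these. Over 32851 promoter windows of the same length, the TATA box was found in 12.4%, TGATAA in 7.94%, AGATAA in 9.99%, the TEAD core in 12.6%, the MEF2 box in 2.92% and the CArG box in 1.47%. Of the 9 genes with a promoter entry, TGATAA was found in 4 (Mybpc3, Myl7, Nppa and Nppb), the TEAD core in 4, the TATA box in 3 and AGATAA in 3. The MEF2 box was found in Mybpc3 only and the CArG box in Myl7 only. These matches describe letters in the reference genome and are not measured binding sites.

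Of all arrays, DBA_F1 replicate 1 stood apart in the cardiac genes, and AKR_F1 replicates 1 and 2 stood apart from the other 4 in skeletal muscle and squamous epithelium markers. Lung epithelium markers were bright everywhere, with a mean of 13.40 to 13.60 over 6 genes (among them Sftpc and Ager). Array medians differed by at most 0.028 log2.

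Atrial natriuretic peptide, Nppa, was the member that varied most. Its signal was 7.45, 7.85 and 6.74 in AKR_F1, replicates 1 to 3 in that order here and below, and 12.17, 7.39 and 7.50 in DBA_F1. Thus 5 arrays lay between 6.74 and 7.85 (mean 7.39 ± 0.40 SD, n = 5), and DBA_F1 replicate 1 lay 4.78 log2 above their mean, a 27.4-fold higher signal. The group means were 7.35 ± 0.56 in AKR_F1 and 9.02 ± 2.72 in DBA_F1 (SD, n = 3 each). The difference, AKR_F1 minus DBA_F1, was -1.67 ± 1.21 (SE from limma, a linear model fitted over all tested probe sets), and it was -0.10 without DBA_F1 replicate 1. The groups overlapped, and the difference came from 1 array.

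B-type natriuretic peptide, Nppb, was also high on this array alone. It read 4.55, 4.80 and 4.52 in AKR_F1 and 7.03, 4.51 and 4.37 in DBA_F1. On DBA_F1 replicate 1 its signal was 2.48 log2, a ratio of 5.58, above the mean of the other 5 arrays. That mean, 4.55 ± 0.16 (SD, n = 5), lies under 4.72, the level below which the lowest 40% of probe sets were left out of the tests. Nppb therefore passed the filter only through this 1 array, and on the others its signal was not separated from the dim probe sets of the array. The group difference was -0.68 ± 0.66 (SE), with group means of 4.62 ± 0.15 and 5.30 ± 1.497 (SD, n = 3 each).

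**Figure D1:**
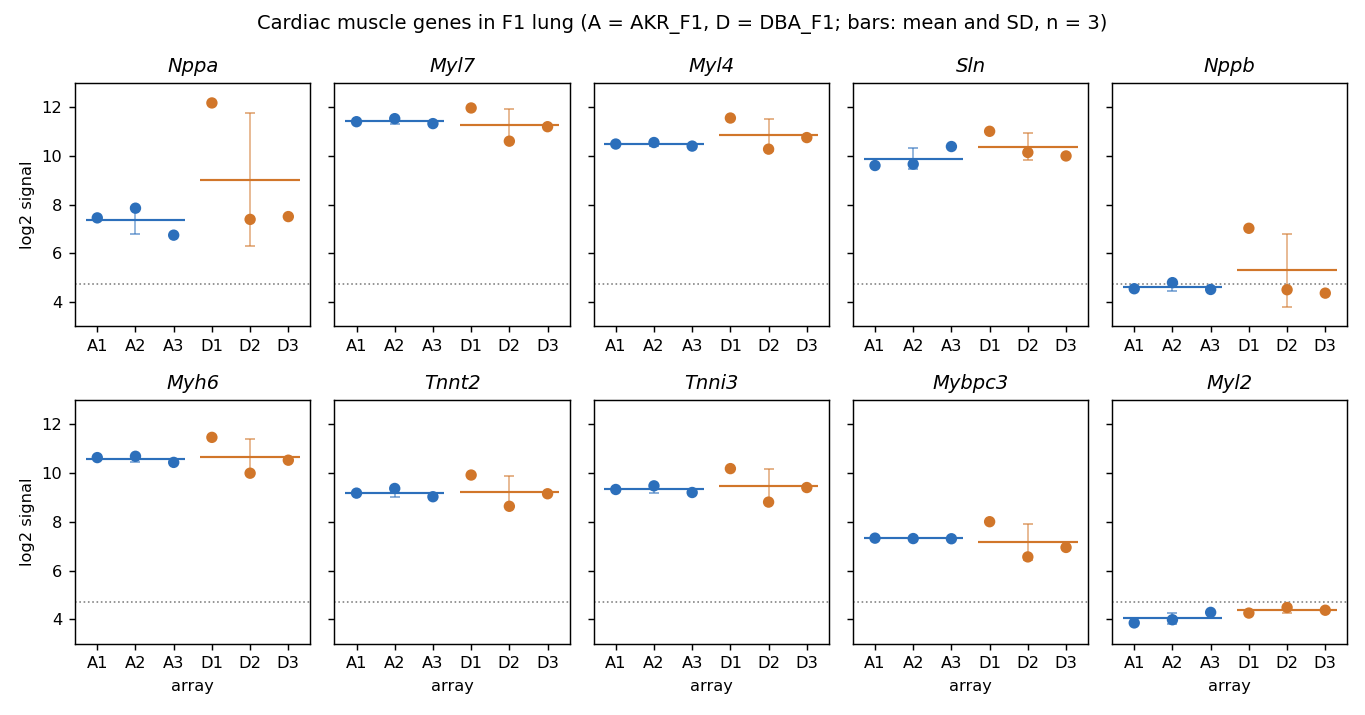
Log2 signal (y axis) of the brightest probe set of each gene on the 6 arrays (x axis; A1 to A3 are AKR_F1 replicates 1 to 3, D1 to D3 DBA_F1 replicates 1 to 3). Points are arrays, horizontal lines group means, bars SD with n = 3, and the dotted line is the filter level of 4.72. Nppa and Nppb stand far above the other 5 arrays on DBA_F1 replicate 1, the muscle genes are moderately higher there, and Myl2 stays under the dotted line on all 6.

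The atrial light chains were bright on every array. Myl7 had signals of 11.40, 11.52 and 11.32 in AKR_F1 and 11.96, 10.60 and 11.19 in DBA_F1. The 3 AKR_F1 arrays lay close together (11.41 ± 0.10 SD) and inside the DBA_F1 range, which held both the highest and the lowest array (11.25 ± 0.68 SD, n = 3 each). Myl4 read 10.48, 10.54 and 10.40 in AKR_F1 and 11.55, 10.27 and 10.74 in DBA_F1, again with DBA_F1 replicate 1 highest and DBA_F1 replicate 2 lowest. Its second probe set was dim and nearly flat (5.10 to 5.38). Group differences were 0.16 ± 0.30 for Myl7 and -0.38 ± 0.28 for Myl4 (SE).

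Sarcolipin, Sln, followed a different order. It read 9.60, 9.66 and 10.38 in AKR_F1 and 11.00, 10.14 and 9.99 in DBA_F1. DBA_F1 replicate 1 was again highest, but AKR_F1 replicates 1 and 2 were the lowest arrays and DBA_F1 replicate 2 was not. Sln is also made in some skeletal muscles. The 13 fast skeletal muscle markers, with Acta1 and Myh1 among them, had a mean signal of 5.36, 4.76 and 9.10 in AKR_F1 and 8.43, 8.94 and 8.47 in DBA_F1. In limma, 0 of 11 tested were called different between groups. Just 1 had an unadjusted p under 0.05, as did 2523 of all 13202 genes tested. The part of the skeletal muscle signal in the Sln values was not tested. The Sln group difference was -0.50 ± 0.31 (SE), and its second probe set lay under the filter level on all arrays (3.97 to 4.19).

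Among the general cardiac genes, the thick-filament pair shared its highest array, DBA_F1 replicate 1, and its lowest, DBA_F1 replicate 2. Alpha myosin heavy chain, Myh6, the main motor of adult mouse heart, read 10.64, 10.69 and 10.44 in AKR_F1 and 11.47, 9.996 and 10.53 in DBA_F1. Its dimmer probe set gave the same order of arrays at the top and the bottom (6.98 on DBA_F1 replicate 1 and 5.32 on DBA_F1 replicate 2). Cardiac myosin-binding protein C, Mybpc3, which tunes the myosin heads, read 7.33, 7.32 and 7.31 in AKR_F1 and 8.01, 6.56 and 6.95 in DBA_F1. Its AKR_F1 arrays differed by little (7.32 ± 0.0125 SD) while the DBA_F1 arrays spread widely (7.17 ± 0.75 SD, n = 3 each). Group differences were -0.076 ± 0.33 for Myh6 and 0.14 ± 0.33 for Mybpc3 (SE).

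The thin-filament troponins did likewise. Cardiac troponin T, Tnnt2, which anchors the troponin complex on tropomyosin, read 9.18, 9.37 and 9.03 in AKR_F1 and 9.92, 8.64 and 9.15 in DBA_F1. Its second bright probe set ranged from 8.51 on DBA_F1 replicate 2 to 9.70 on DBA_F1 replicate 1, and the remaining one lay under the filter level on every array (highest 4.51). Cardiac troponin I, Tnni3, the inhibitory subunit, read 9.33, 9.48 and 9.20 in AKR_F1 and 10.18, 8.81 and 9.41 in DBA_F1. In both genes the extremes were DBA_F1 arrays and the AKR_F1 arrays lay between them. Group differences were -0.044 ± 0.29 for Tnnt2 and -0.13 ± 0.31 for Tnni3 (SE).

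The ventricular light chain Myl2 was dim on all arrays, with 3.86, 3.99 and 4.29 in AKR_F1 and 4.26, 4.49 and 4.38 in DBA_F1. All 6 values lay under the filter level, so Myl2 was not tested, and a signal this low does not show that the transcript is absent. DBA_F1 replicate 1, the highest array for the other 9 genes, was not the highest for Myl2. Irx4 and Hey2, transcription factors of ventricular muscle, were likewise under the filter level everywhere (3.36 to 3.70 and 3.12 to 3.69).

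Placing each gene against its own mean over the 6 arrays allowed atrial and general cardiac genes to be compared on each array. The mean deviation of the 4 atrial genes was -0.34, -0.18 and -0.37 log2 in AKR_F1 and 1.59, -0.48 and -0.22 in DBA_F1. For the 6 general cardiac genes it was -0.13, -0.004 and -0.15 in AKR_F1 and 0.87, -0.44 and -0.15 in DBA_F1. Both classes were thus high on DBA_F1 replicate 1 and low on DBA_F1 replicate 2. The atrial mean exceeded the general mean by 0.72 on DBA_F1 replicate 1. It was below the general mean on each of the other 5 arrays, by a difference of -0.22 to -0.036. Each gene's deviations cancel out over the 6 arrays, so the excess on DBA_F1 replicate 1 lowers the others. These negative differences are therefore no separate result.

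This excess of atrial over general genes came from Nppa. With Nppa, Nppb and the dim Myl2 left out, a comparison added after the values were seen, the 3 atrial genes deviated by 0.80 and the 4 general genes by 0.77 on DBA_F1 replicate 1, a difference of 0.024. On the other 5 arrays the same difference ran from -0.22 to 0.25. Measured against the mean of the 5 other arrays, DBA_F1 replicate 1 was 0.75 (Myl7) to 1.06 (Myl4) log2 higher for the 7 muscle genes other than Myl2, which is 1.69-fold to 2.09-fold. Nppa, at 27.4-fold, lay outside that range. So did the Nppb ratio of 5.58, which is taken against a mean under the filter level and has no certain size.

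**Figure D2:**
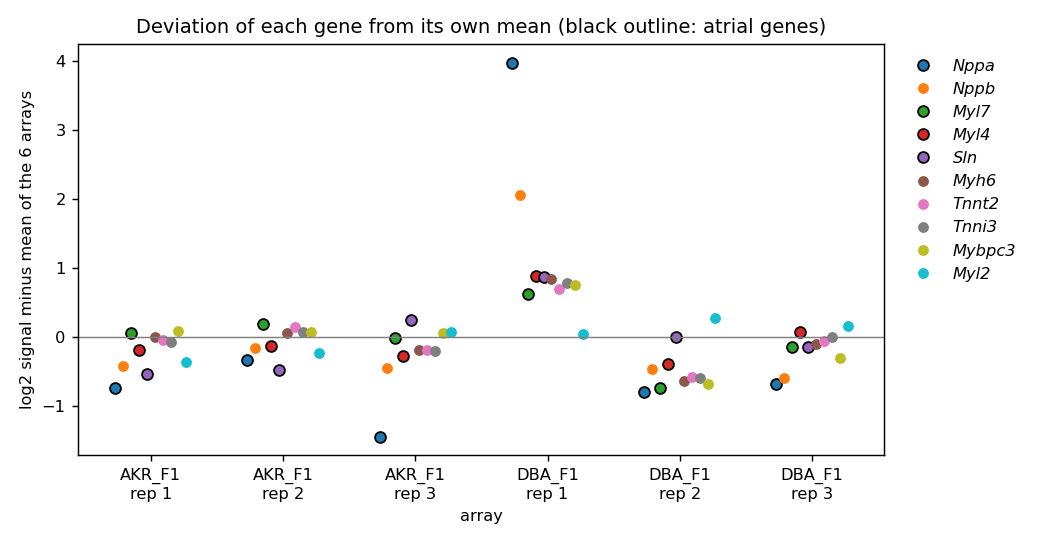
Deviation of each gene from its own mean over the 6 arrays (y axis, log2) on each array (x axis). Atrial genes have a black outline. On DBA_F1 replicate 1 the muscle genes other than Myl2 lie between 0.63 and 0.88 while Nppa lies at 3.98 and Nppb at 2.07; on DBA_F1 replicate 2, 6 muscle genes lie below 0, Sln at 0.008 and Myl2 at 0.28.

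Averaged by group, no member set the crosses apart. The groups overlapped in all 10 genes, while 24.2% of all tested genes had groups without overlap. The members' median difference was -0.44 over the 4 atrial genes and -0.076 over the 5 tested general genes, against 0.015 over all genes tested. The atrial mean difference was -0.60, and 0.049 without DBA_F1 replicate 1. The general mean difference was -0.19, and 0.20 without that array. The SDs of the 7 muscle genes without Myl2 ran from 0.55 to 0.75 in DBA_F1 and from 0.0125 to 0.43 in AKR_F1, so the DBA_F1 arrays differed more from each other.

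The height of DBA_F1 replicate 1 was set beside all genes. At a margin of 0.5 log2, chosen after the values were seen, 25 of 13202 tested genes (0.189%) were higher on this array than on every other, and 8 of the 9 tested members were among them, with Myl7 at 0.44 just short. Because the members were proposed from these arrays, the count is a description. Nppb was tested only because this array raised its mean above the filter level, and so were Corin and Kcnj5 among the 25. Nppa (4.32) and Nppb (2.23) had the widest margins and were the only 2 genes above 2. With the same margin, members numbered 0 on each of the other 5 arrays, where 1 to 81 genes passed. DBA_F1 replicate 1 was the highest array for 9 of the 10 members and for 17.4% of tested genes, and DBA_F1 replicate 2 was the lowest for 6 of the 10 and for 23.2%.

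**Figure D3:**
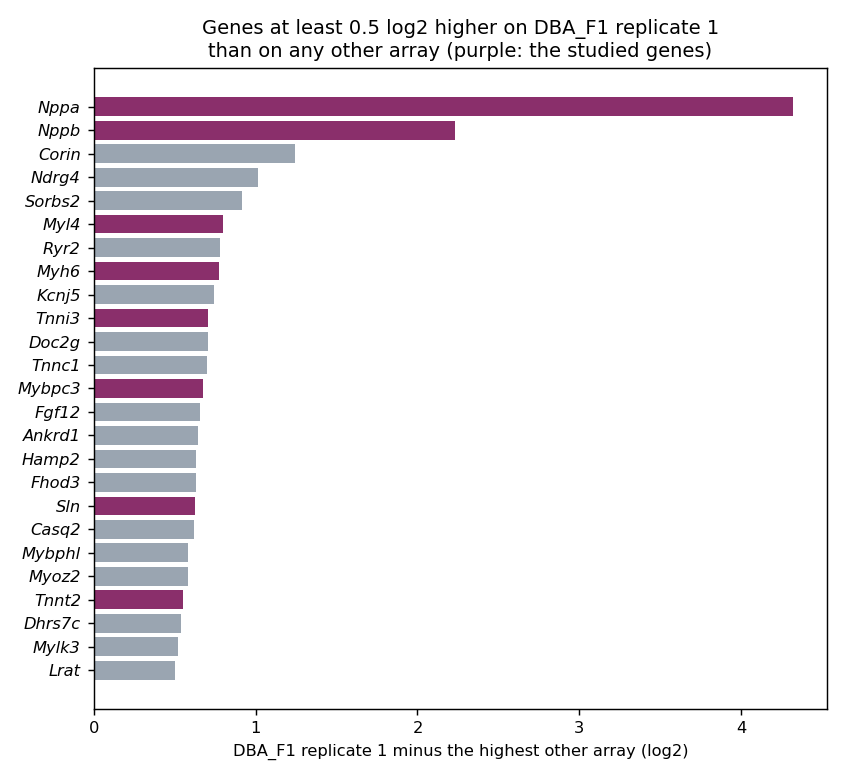
Margin by which the signal on DBA_F1 replicate 1 exceeded the highest of the other 5 arrays (x axis, log2) for the 25 tested genes with a margin of at least 0.5, by gene (y axis). Purple bars are the cardiac genes of this report, grey bars the other 17 genes. Nppa (4.32) and Nppb (2.23) lead, followed by Corin at 1.24.

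Markers of most other tissues were not highest on the same array. Just 1 of 13 fast skeletal muscle markers, 1 of 6 smooth muscle markers, 0 of 7 adipocyte markers, 0 of 6 squamous epithelium markers and 0 of 6 thymocyte markers were highest on DBA_F1 replicate 1. Of 6 slow skeletal muscle markers 2 were, Tnnc1 and Casq2, both of them also heart muscle genes. Myh7 and Myl3 of the same list, which are heart muscle genes too, were not. The adipocyte list, which holds Adipoq and Ucp1, had a mean signal of 6.07 to 7.46 in AKR_F1 and 8.29 to 9.70 in DBA_F1. Its highest value was on DBA_F1 replicate 2, the lowest array for 6 of the 10 cardiac genes. Of its 7 tested genes, 5 were called higher in DBA_F1 in limma, against 1.06% of all tested genes. Smooth muscle markers lay between 8.92 and 9.05 in AKR_F1 and between 9.04 and 9.49 in DBA_F1 (0 of 6 called in limma, 3 at an unadjusted p under 0.05). Thymocyte markers lay between 4.89 and 6.93 in AKR_F1 and between 4.71 and 4.77 in DBA_F1 (0 of 4 called, 3 at an unadjusted p under 0.05). Of all 13202 genes tested, 2523 had an unadjusted p under 0.05 in limma. In whole lung, more cells of a type and more RNA per cell cannot be told apart.

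**Figure D4:**
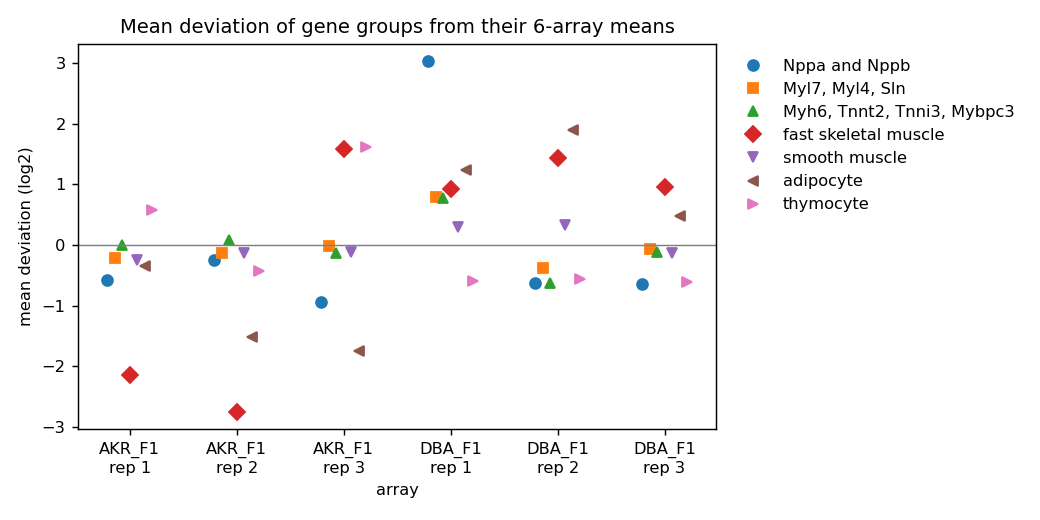
Mean deviation of gene groups from their own 6-array means (y axis, log2) on each array (x axis); each symbol is the mean of 1 group of genes. The cardiac groups peak on DBA_F1 replicate 1, at 3.02 for Nppa with Nppb and at 0.80 and 0.77 for the muscle genes, whereas fast skeletal muscle is low on AKR_F1 replicates 1 and 2 alone and adipocyte markers are highest on DBA_F1 replicate 2.

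The genes most like the mean profiles of the members were sought among 18183 genes. The measure was the root mean square difference of centred log2 signals over the 6 arrays, where 0 is an identical profile. On DBA_F1 replicate 1 the atrial mean stood at 1.59, with Nppa at 3.98 and Myl7, Myl4 and Sln at 0.63 to 0.88. No single atrial gene had that height, and the mean without Nppa was 0.80. Closest to the atrial mean was Corin (0.21), the heart protease that cuts the precursor of atrial natriuretic peptide, followed by Ndrg4 (0.34), the calcium release channel Ryr2 (0.35), Sorbs2 (0.36), cardiac troponin C (Tnnc1, 0.36), Hamp2 (0.39), Fgf12 (0.40) and the potassium channel subunit Kcnj5 (0.40). Corin read 4.91, 4.70 and 4.48 in AKR_F1 and 6.16, 4.56 and 4.76 in DBA_F1, with a mean of 4.68 over the 5 arrays other than DBA_F1 replicate 1. That mean is under the filter level, so Corin was tested only through this array and the signal ratio of 2.78 has no certain size. Closest to the general cardiac mean were Ryr2 (0.073), Fgf12 (0.11), the calcium store protein calsequestrin-2 (Casq2, 0.12), Ankrd1 (0.12), Doc2g (0.13), Tnnc1 (0.13), the myosin-binding protein Mybphl (0.13) and Sorbs2 (0.14). Ryr2 read 6.15, 6.32 and 6.03 in AKR_F1 and 7.10, 5.90 and 6.25 in DBA_F1, the order of Myh6 and the troponins at both ends.

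No tested gene outside the members came near the margin of Nppa on DBA_F1 replicate 1. Some genes had a wider range over the 6 arrays than Nppa (5.42), such as the squamous epithelium marker Krt13 (9.16). Nearest to Nppa by profile were Corin (1.26), Hamp2 (1.37), Ltf (1.39), Ndrg4 (1.40), Hpcal4 (1.40), Itln1 (1.41), Camp (1.44) and Sorbs2 (1.44), all with a smaller range than Nppa. Ltf, which encodes lactoferrin, differed in shape, with 10.50, 10.09 and 9.46 on the DBA_F1 arrays and 7.85, 8.67 and 8.32 on the AKR_F1 arrays.

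The remaining genes of heart muscle were taken from 5 lists of 58 genes, of which 53 were on the array under 1 symbol and 42 were tested. Just 1 of the 42 was called in limma at a Benjamini-Hochberg adjusted p under 0.05, and 10 had an unadjusted p under 0.05. Of all 13202 genes tested, 2.48% were called and 2523 had an unadjusted p under 0.05 in limma. Of 15 further sarcomere genes, 0 were called (2 at an unadjusted p under 0.05, median difference -0.32), 8 were highest on DBA_F1 replicate 1, and 3 of them (Tnnc1, Myoz2 and Ankrd1) exceeded every other array by 0.5. Cardiac actin (Actc1), with 11.47, 11.62 and 11.61 in AKR_F1 and 12.04, 11.31 and 11.44 in DBA_F1, had the members' high array, and DBA_F1 replicate 2 was its lowest. Some had the order of the fast skeletal muscle list, low on AKR_F1 replicates 1 and 2: Myl3, the light chain of ventricle and slow muscle, read 7.59, 7.94 and 10.52 in AKR_F1 and 9.96, 10.46 and 10.04 in DBA_F1, and titin (Ttn) read 7.78, 7.86 and 9.42 and then 9.36, 9.36 and 8.92. Groups without overlap, found in 24.2% of all tested genes, were also seen for beta myosin heavy chain (Myh7), the slow form. It was higher on every AKR_F1 array (8.45, 8.75 and 8.37) than on any DBA_F1 array (8.12, 7.68 and 7.96), at 0.60 ± 0.14 SE and a limma adjusted p of 0.0822.

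Without AKR_F1 replicate 3, 9 of these genes were called in limma, 8 of them higher in DBA_F1. Besides Npr1 these were Actn2, Ldb3, Myl3, Myom1, Tcap, Trdn and Ttn, genes of the sarcomere and its calcium triads that skeletal muscle also uses, and Pde5a was the 1 higher in AKR_F1. In that fit 4.97% of all tested genes were called and 2.89% were called higher in DBA_F1, against 2.48% and 1.06% with all 6 arrays, and the called probe sets rose from 707 to 1171. The fast skeletal muscle list had its highest mean of all 6 arrays on AKR_F1 replicate 3 and its lowest on AKR_F1 replicates 1 and 2, and its part in these calls was not tested.

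Of 9 calcium handling genes, 7 were highest on DBA_F1 replicate 1. Of 8 tested, 0 were called (1 at an unadjusted p under 0.05, median difference -0.22). The calcium pump Atp2a2 (11.39, 11.43 and 11.23 in AKR_F1; 11.81, 10.95 and 11.23 in DBA_F1) and its inhibitor phospholamban (Pln; 8.36, 8.24 and 8.14, then 8.75, 7.39 and 7.68) were highest on DBA_F1 replicate 1 and lowest on DBA_F1 replicate 2, like most members. All 3 Pln probe sets had this order, but of the 4 tested Atp2a2 probe sets 2 did not: the second brightest read 11.01, 11.05 and 10.93 in AKR_F1 and 10.88, 10.86 and 10.75 in DBA_F1. The probe sets of triadin (Trdn) disagreed. Its brightest read 4.91 and 4.81 on AKR_F1 replicates 1 and 2 and 6.32 to 6.82 on the other 4 arrays, while another tested one read 5.75 on DBA_F1 replicate 1 and 4.70 to 5.01 on the other 5. Among atrial and conduction channels 0 of 5 tested were called (2 at an unadjusted p under 0.05). Kcnj5, part of the acetylcholine-gated channel of the atria, read 5.59 on DBA_F1 replicate 1 and 4.65 to 4.84 elsewhere, a mean of 4.71 that is under the filter level, so it too was tested only through this array. Its partner Kcnj3 showed no such margin (5.24 against up to 5.21). The gap junction gene Gja5 differed by 0.54 ± 0.13 SE toward AKR_F1 (limma adjusted p = 0.0942), and Kcnk3 by -0.49 ± 0.12 SE (limma adjusted p = 0.10).

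Cardiac transcription factors were mostly dim and varied less. Of 13 listed, 12 were on the array and 5 tested, with 0 called in limma (2 at an unadjusted p under 0.05). By the brightest probe set of each gene, DBA_F1 replicate 1 was the highest array for 4 of the 12 (Nkx2-5, Gata4, Hand2 and Shox2). A dimmer Tbx20 probe set read 4.44 on DBA_F1 replicate 1 and 2.83 to 3.88 on the other arrays, all under the filter level. Shox2, a factor of the sinus node and pulmonary vein muscle, read 4.67 there and 3.89 to 4.10 on the others, all under the filter level. Nkx2-5, an early factor of heart muscle, stayed between 5.63 and 5.94 on all arrays, and Tbx20, Hand2 and Isl1 had means under the filter level. Gata4 was also under it on average, with 4.99 on DBA_F1 replicate 1 and 4.33 to 4.71 on the others. Gata6, Tbx5, Mef2c and Nr2f2, which lung tissue also expresses, had differences of 0.28 ± 0.11, -0.073 ± 0.075, 0.14 ± 0.18 and 0.29 ± 0.10 (SE).

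Of the 3 natriuretic peptide receptors, Npr1 and Npr3 had no overlap between the crosses, which was true of 24.2% of all tested genes. Neither receptor had the members' pattern. Npr1, the guanylyl cyclase receptor of Nppa and Nppb, read 5.81, 5.998 and 5.91 in AKR_F1 and 7.01, 6.89 and 7.07 in DBA_F1. It was the 1 called gene of the list, at -1.09 ± 0.082 SE (5.90 ± 0.095 against 6.99 ± 0.091 SD, n = 3 each, limma adjusted p = 0.00144), and all 3 DBA_F1 arrays lay above all 3 AKR_F1 arrays. On DBA_F1 replicate 1 Npr1 lay between the other 2 DBA_F1 arrays. Leaving out any single array kept the call (limma adjusted p up to 0.0110), while it was lost with AKR_F1 replicate 3 alone against DBA_F1 (-1.08, limma adjusted p = 0.0509). Of all tested genes, 1.06% were called higher in DBA_F1. Npr1 has 1 probe set here.

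Npr3, the clearance receptor that removes the peptides, went the other way. Its brightest probe set read 9.34, 9.17 and 9.004 in AKR_F1 and 8.09, 8.74 and 8.39 in DBA_F1, without overlap, and missed the threshold (0.76 ± 0.16 SE, limma adjusted p = 0.0669). Its other 2 probe sets were called higher in AKR_F1, at 0.91 ± 0.10 and 0.97 ± 0.18 SE (limma adjusted p = 0.00822 and 0.0398); 2.62% of tested probe sets were called in either direction, and 1.42% of tested genes higher in AKR_F1. DBA_F1 replicate 1, the array with high Nppa, was the lowest of the 6 for the brightest Npr3 probe set and for the one at 0.91. For the one at 0.97, DBA_F1 replicate 3 was lowest (5.51, against 5.75 on DBA_F1 replicate 1). A link between Npr3 and Nppa was not tested. The cyclic GMP phosphodiesterase Pde5a was also higher on every AKR_F1 array, at 0.40 ± 0.084 SE (limma adjusted p = 0.0640). Npr2, which prefers the C-type peptide, the protease Mme (neprilysin), the kinase Prkg1 and the convertase Furin had differences of 0.072 ± 0.067, -0.011 ± 0.061, 0.014 ± 0.070 and -0.031 ± 0.050 (SE). The C-type peptide gene Nppc lay under the filter level on all arrays (3.87 to 4.14).

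**Figure D5:**
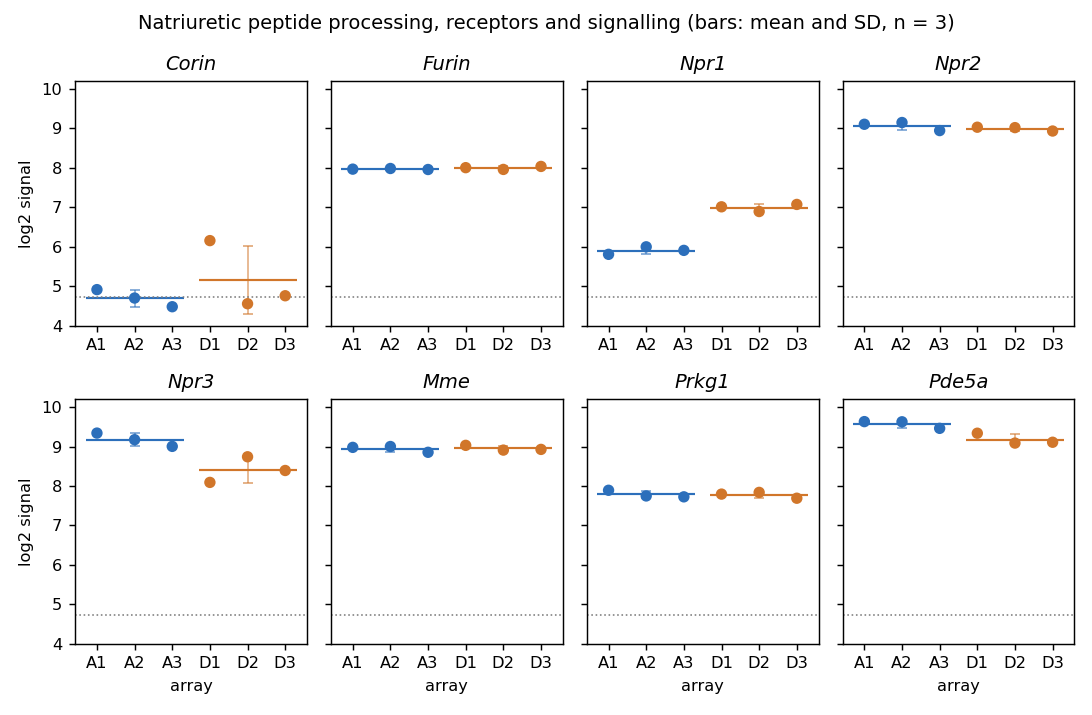
Log2 signal (y axis) of genes that cut, bind, degrade or signal for natriuretic peptides, by array (x axis; A1 to A3 are AKR_F1 and D1 to D3 DBA_F1 replicates 1 to 3). Points are arrays, lines means, bars SD with n = 3, and the dotted line is the filter level of 4.72. Npr1 is higher on all 3 DBA_F1 arrays and Npr3 and Pde5a on all 3 AKR_F1 arrays, while Corin is high on DBA_F1 replicate 1 alone.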

How the data were processed

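Total RNA from lung, extracted with Trizol, was biotin-labelled and hybridised, per the labels' protocols. The authors deposited log2 signals, 1 per probe set and array; MAS5 and RMA are both listed, per the submitters' processing notes, with no word on which made the table, and values were used unchanged. Background level and detection calls were not given in the sources used here.

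After removal of 64 control probe sets, 34945 of 45037 had 1 symbol, 932 several and 9160 none. The lowest 40% by mean (4.72 or less) were left out of tests, leaving 27022 probe sets and 13202 genes, each represented by its brightest probe set; 12 of 15 member probe sets and 9 of 10 member genes remained. limma 3.58.1 in R 4.3.3 (lmFit, eBayes with trend, two-sided) was fitted with group as the only term (4 residual and 3.06 prior degrees of freedom), with Benjamini-Hochberg adjustment over all tested probe sets, and was tested on simulated data. Group was taken from sample titles. The number of arrays limits the precision.

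The members, lists, tests and alternatives were chosen with earlier results of these data known. Named were all members, called list genes, up to 6 others per list, and the 8 genes nearest to each profile; Myh7, Gja5, Kcnk3, Pde5a, the other Npr3 probe sets and list genes beyond these were chosen after their values were seen. Promoters are RefSeq's (GRCm38.p6) and matched 9 of 10 members by symbol, all but Sln. Alternatives were quantile normalization, median centring, other filters, eBayes without trend or robust, array weights, a replicate block, other probe set summaries and leaving out arrays or, added after the values were seen, genes.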

Additional observations from a re-analysis of the deposited data

How the results depend on the processing

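All 10 members kept their group difference within 1 SD of the spread between arrays under each alternative run for them, but the DBA_F1 spread is wide and signs changed. With 3 arrays per group, leaving out 1 array cannot move a difference beyond that limit, so the limit tests nothing there. Without DBA_F1 replicate 1, the Nppa difference went from -1.67 to -0.10 and the Nppb difference from -0.68 to 0.18. The atrial mean difference ran from -0.99 to 0.049 and the general mean difference from -0.45 to 0.20 when 1 array was left out, both positive only without DBA_F1 replicate 1; the atrial minus general difference ran from -0.55 to -0.15. The count of called probe sets was 707; it ran from 198 (without AKR_F1 replicate 1; 199 without AKR_F1 replicate 2 and 249 without DBA_F1 replicate 2) to 1171 (without AKR_F1 replicate 3), and was 1198 with array weights and 85 with AKR_F1 replicate 3 alone against DBA_F1, an alternative added after the data were seen. The count of called companion genes was 1 (Npr1) and ran from 1 to 9 with 1 array left out (9 without AKR_F1 replicate 3, 3 without DBA_F1 replicate 1, with Pln and Pde5a, and 2 without DBA_F1 replicate 2, with Npr3); it was 2 with robust eBayes (with Pde5a), 3 with array weights (with Myh7 and Pde5a), 3 with each gene's probe sets averaged (with Npr3 and Pde5a) and 0 with AKR_F1 replicate 3 alone. The causes of these changes were not tested. Arrays with the same replicate number deviated from their group means with correlations of 0.311, -0.228 and -0.05 for replicates 1 to 3. AKR_F1 replicate 3 and DBA_F1 replicate 2 reached 0.312. Deviations within a group of 3 depend on each other, so these values cannot decide whether the numbers pair the arrays. With the replicate block 539 probe sets and 2 companion genes (Npr1 and Kcnk3) were called, and the member means stayed at -0.60 and -0.19. Signal near the dim end limits Nppb, Myl2, Corin and Kcnj5.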

Other observations

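Outside the members and the lists, further genes were higher on DBA_F1 replicate 1 than on any other array by at least 0.5 log2. Fhod3, a formin of heart muscle sarcomeres, read 5.81 there and 5.01 to 5.18 on the other arrays. The cardiac myosin light chain kinase Mylk3 read 6.67 against 5.84 to 6.15, and Dhrs7c read 7.23 against 6.08 to 6.69. Lrat, which makes retinyl esters, read 8.80 against 7.65 to 8.29. Mybphl, a myosin-binding protein of atrial muscle, read 8.13 against 7.12 to 7.54. Below the filter level on average, and chosen after its values were seen, Bmp10, a growth factor of atrial muscle, read 5.22 against 4.15 to 4.57. These are values of 1 array without a test.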
